A study of Mus musculus with 12 samples.

Results

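The subject here is the difference between 2 clonal mouse digit fibroblast lines, P3D8 and P3E3, in how their transcriptomes changed when monolayer cells were made into BMP9 cartilage. All 12 libraries of the series enter this comparison, 3 for each of 4 groups, and they were grouped by sample title: P3D8/BMP9 cartilage, P3D8 monolayer, P3E3/BMP9 cartilage and P3E3 monolayer. Both lines were grown from single cells of P3 fibroblasts, taken from the adult mouse digit and carrying lacZ, so each line is 1 clone and a difference between the lines is a difference between 2 clones. The cartilage cultures were aggregated in suspension with 50 ng/ml BMP2 for 4 days and then moved to 50 ng/ml BMP9. Monolayer cultures of the same lines received neither BMP and were kept on fibronectin with EGF, PDGF and LIF, so the change from monolayer to cartilage takes in the aggregation and the loss of these factors as well as the BMPs. All 4 groups are labelled passage 6. For each transcript the cartilage response of a clone is the mean of log2(normalized count + 1) in cartilage minus that in monolayer, and the difference reported here is the P3D8 response minus the P3E3 response. Transcripts were tested where the 12 libraries averaged 10 normalized counts or more, which left 5333 of 106518 transcript entries and 5213 of 35976 genes.

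The cell line entry of 4 sample records, 1 in each group, names the other clone than the title does. In a principal component analysis the libraries lay with their titles, and the counts of calls are also given without these 4 libraries. The libraries held 7269748 to 8662298 counted reads. The 10 most counted transcripts took 27.7% to 29.1% of the reads in P3D8/BMP9, 12.4% to 13.3% in P3D8 monolayer, 21.0% to 21.7% in P3E3/BMP9 and 9.86% to 10.4% in P3E3 monolayer. Genes with several transcript entries are counted low in this table, and genes that overlap on opposite strands cannot be told apart because no strand setting is given. Markers that define cartilage were higher in both cartilages than in the monolayers, where Sox9 made up nearly all of the sum. The summed level of the chondrocyte markers was 6075 to 6564 normalized counts in P3D8/BMP9, 724 to 887 in P3D8 monolayer, 19516 to 21820 in P3E3/BMP9 and 842 to 921 in P3E3 monolayer. Epyc had the largest mean of these markers, at 2126 in P3D8/BMP9 and 11165 in P3E3/BMP9, and Col9a2 had 124 and 3117. Sox9 had 3869 and 4962 in the same cartilages, and Acan 28.5 and 30.1. The gap in the sum was thus not shared by all of the markers. These are bulk cultures, so fewer cells of a type and less RNA per cell cannot be told apart.

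BMPs are secreted factors of the TGF-beta family. They bind pairs of type I and type II receptors that phosphorylate Smad proteins, which enter the nucleus and switch on target genes such as the Id genes, whose products hold back differentiation by binding bHLH factors. In mesenchymal cells of the limb BMP signaling drives condensation and chondrocyte differentiation under Sox9, and chondrocytes then either stay small in articular cartilage or enlarge and mineralize their matrix, with collagen X, Indian hedgehog and Mmp13 as markers of that hypertrophic course.

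The 2 clones mostly responded in the same direction, and for many transcripts by different amounts. With a called response of at least 1 on the log2 scale in each clone and the same sign, 129 rising transcripts had a higher P3D8 change, 406 a lower one and 608 neither, and among falling transcripts the counts were 162, 90 and 474. Across the 5333 transcripts the responses had a Pearson's r of 0.889 and a Spearman's rho of 0.825, which is a description across transcripts of libraries normalized together. P3D8 raised 1999 transcripts (37.5% of those tested) and lowered 2070 (38.8%), and P3E3 raised 2207 (41.4%) and lowered 2041 (38.3%), at an adjusted p under 0.05 in limma. The P3D8 change was higher than the P3E3 change for 999 transcripts (18.7%) and lower for 1481 (27.8%) at the same threshold. With a difference of at least 1.5 on the log2 scale as well, 282 transcripts (5.29%) were higher and 433 (8.12%) lower. For 2175 transcripts (40.8%) the 9 cartilage minus monolayer differences of one clone lay outside those of the other. The 95% interval of the difference lay within -1 to 1 for 2246 transcripts (42.1%).

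The balance of higher and lower calls depended on the scaling. Of the calls 40.3% were higher with the deposited scaling, 64.2% when library totals without the 10 most counted transcripts were made equal, and 51.5% after quantile normalization. The median difference over all transcripts was -0.07, 0.25 and 0.04 under these 3 scalings. Without the 4 libraries with a conflicting entry, 631 transcripts were higher and 1169 lower. A further limit concerns transcripts listed at 0 in all 3 libraries of a group, where a ratio has no measured denominator. Of the 2480 transcripts called, 103 had such a group, and edgeR on the recovered reads called 15 of these. It called 2165 of the other 2377.

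**Figure D1:**
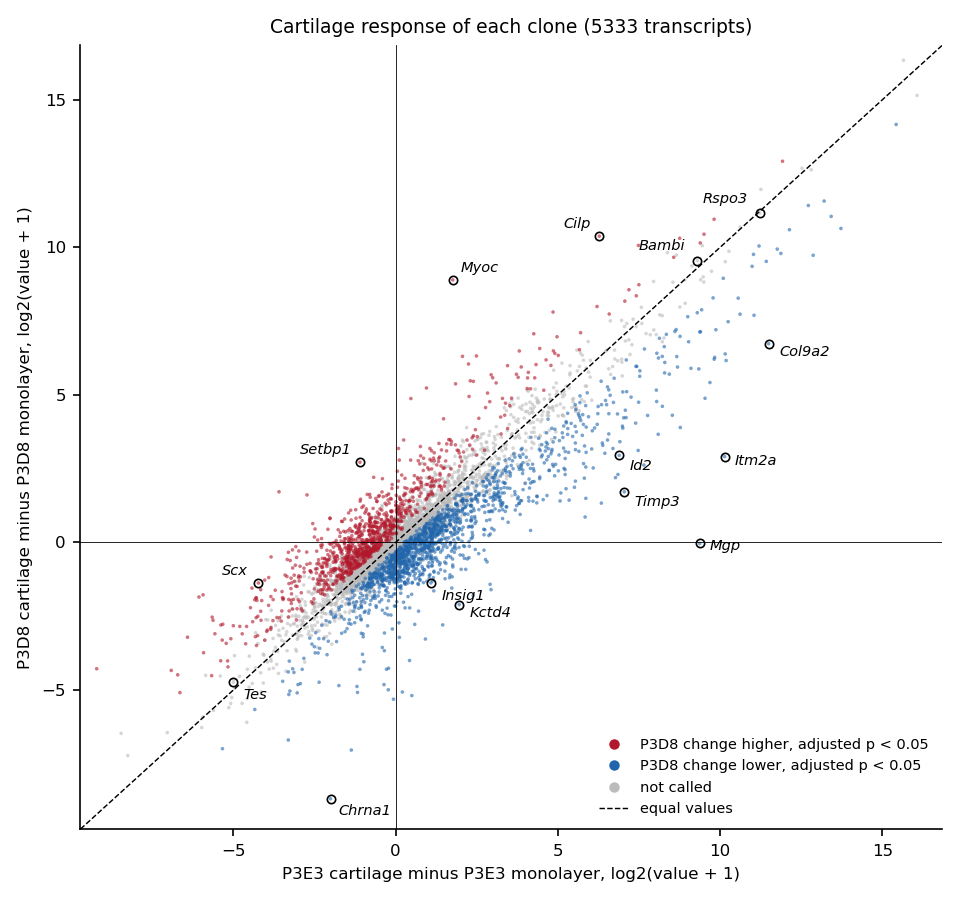
Cartilage response of P3D8 (vertical axis) against that of P3E3 (horizontal axis), both as the difference of mean log2(normalized count + 1), for 5333 transcripts. Red points were called higher in P3D8 (999), blue points lower (1481), and grey points were not called. Most points run along the dashed line of equal response, Mgp and Itm2a lie far below it and Myoc and Cilp far above it.

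Among the largest lower values were genes that P3D8 cells already expressed in monolayer and P3E3 cells hardly did. Mgp encodes matrix Gla protein, a secreted inhibitor of calcification, and lies at chr6:136872435-136875823 (mm10, as are all gene positions here). It had 1871, 1737 and 1651 normalized counts in P3D8/BMP9, against 1600, 2202 and 1641 in P3D8 monolayer. In P3E3 it had 2823, 4181 and 4903 in cartilage, against 12.1, 5.93 and 1.22 in monolayer. The P3D8 groups overlapped and P3E3 monolayer stood apart from every other library, so that the response was -0.04 in P3D8 and 9.37 in P3E3 and the difference -9.40 ± 0.62 (SE, adjusted p = 7.2e-08). Itm2a, which encodes an integral membrane protein of developing cartilage and muscle, had 2071, 2175 and 2287 normalized counts in P3D8/BMP9, against 291, 328 and 252 in P3D8 monolayer. It had 1625, 2011 and 2465 in P3E3/BMP9, against 1.21, 0.593 and 0.609 in P3E3 monolayer. The cartilages of the 2 clones overlapped for Itm2a and the monolayers did not, and the difference was -7.23 ± 0.23 (SE, adjusted p = 1.4e-10).

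Timp3, an inhibitor of matrix metalloproteinases that is bound to the extracellular matrix, had the same layout at a much higher level. It had 23458, 20038 and 23457 normalized counts in P3D8/BMP9, against 6626, 6219 and 7555 in P3D8 monolayer. In P3E3 it had 20584, 12702 and 11961 in cartilage, against 104, 123 and 104 in monolayer. Timp3 rose in both clones, by 1.72 in P3D8 and 7.05 in P3E3, and the difference was -5.33 ± 0.23 (SE, adjusted p = 2.1e-09). Chrna1, the alpha subunit of the muscle acetylcholine receptor, showed a loss in P3D8 instead: 0.746, 0 and 3.16 normalized counts in P3D8/BMP9, against 777, 890 and 730 in P3D8 monolayer. In P3E3 Chrna1 was low in both states, at 0, 0.827 and 0 in cartilage, against 3.62, 5.34 and 3.05 in monolayer, and its difference of -6.68 ± 0.61 (SE, adjusted p = 1.6e-06) had an adjusted p of 0.082 in edgeR. Chrnd, the delta subunit of the same receptor, was the mirror case, with 15.01, 14.8 and 27.9 normalized counts in P3D8 monolayer and 562, 557 and 661 in P3E3 monolayer, and was listed at 0 in all 6 cartilage libraries. The loss of Chrnd in cartilage was therefore at least 24.5-fold in P3D8 and at least 726-fold in P3E3, against a floor of 3 counts over the group. Of the 6 skeletal muscle markers Myod1, Myog, Acta1 and Myh3 were listed at 0 in all 12 libraries. Des, also in that set, averaged 81.8 normalized counts in P3D8/BMP9, 68.6 in P3E3/BMP9 and 1.92 in P3D8 monolayer. In P3E3 monolayer the 6 markers summed to at most 1.22.

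**Figure D2:**
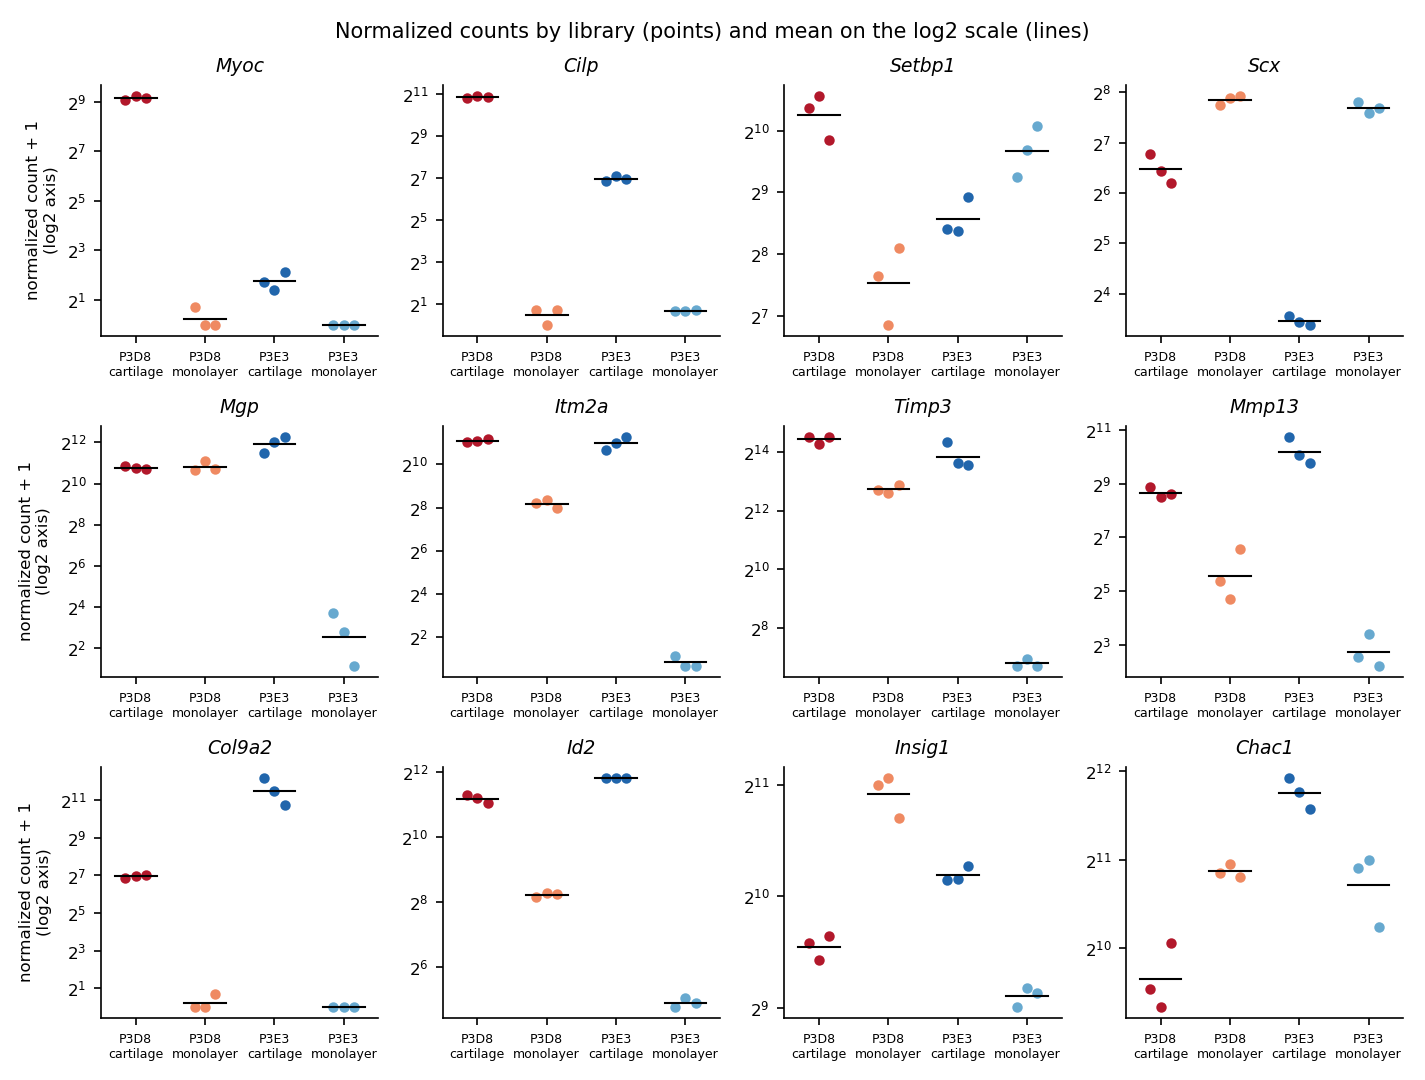
Normalized counts plus 1 (log2 axis) of 12 genes in each library, with P3D8/BMP9, P3D8 monolayer, P3E3/BMP9 and P3E3 monolayer from left to right and a line at the mean on the log2 scale. Mgp, Itm2a, Timp3 and Id2 differ between the clones mainly in monolayer, Myoc, Cilp and Col9a2 in cartilage, and Setbp1, Insig1 and Chac1 move in opposite directions in the 2 clones.

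The largest higher values included genes that rose in P3D8 cartilage and much less in P3E3 cartilage. Cilp encodes cartilage intermediate layer protein, a matrix protein of articular cartilage (chr9:65265180-65280614). It had 1783, 1903 and 1848 normalized counts in P3D8/BMP9, against 0.652, 0 and 0.621 in P3D8 monolayer. In P3E3 it had 116, 134 and 120 in cartilage, against 0.604, 0.593 and 0.609 in monolayer. Cilp thus rose in both clones from at most 0.652 normalized counts in a monolayer library, and the difference was 4.10 ± 0.30 (SE, adjusted p = 2.4e-07). Svep1, a large secreted protein with sushi and pentraxin domains, had 883, 995 and 774 normalized counts in P3D8/BMP9, against 18.9, 6.43 and 8.07 in P3D8 monolayer. It had 253, 220 and 271 in P3E3/BMP9, against 30.8, 52.2 and 49.9 in P3E3 monolayer, and the difference was 3.83 ± 0.42 (SE, adjusted p = 7.3e-06). The clones did not overlap in cartilage, where P3D8 was above P3E3, or in monolayer, where it was below.

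Myoc, which encodes the secreted glycoprotein myocilin, had the largest higher value of the transcripts tested. It had 528, 597 and 561 normalized counts in P3D8/BMP9, against 0.652, 0 and 0 in P3D8 monolayer. In P3E3 it had 2.30, 1.65 and 3.43 in cartilage and was listed at 0 in all 3 monolayer libraries. The fitted difference of 7.13 ± 0.40 (SE, adjusted p = 2.3e-08) depends on the pseudocount and was not called by edgeR (adjusted p = 0.96). Between the cartilages, where reads were counted in every library, Myoc was 228-fold higher in P3D8/BMP9 (log2 difference 7.38, adjusted p = 5.2e-10).

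Other higher values came from a loss in P3E3 that P3D8 did not share or shared in part. Fgf10, a growth factor of limb outgrowth, had 274, 276 and 289 normalized counts in P3D8/BMP9, against 184, 164 and 191 in P3D8 monolayer. It had 35.2, 34.7 and 47.2 in P3E3/BMP9, against 197, 232 and 273 in P3E3 monolayer, a rise of 0.64 in P3D8 beside a fall of 2.55 in P3E3. The difference was 3.19 ± 0.21 (SE, adjusted p = 7.0e-08). Scx, the scleraxis transcription factor of tendon and ligament progenitors, had 109, 85.7 and 72.8 normalized counts in P3D8/BMP9, against 213, 234 and 242 in P3D8 monolayer. It had 10.7, 9.92 and 9.44 in P3E3/BMP9, against 223, 191 and 204 in P3E3 monolayer. The monolayers overlapped, both clones fell, and the P3E3 fall was larger by 2.86 ± 0.22 (SE, adjusted p = 3.8e-07).

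A response with opposite signs was rare. At an adjusted p under 0.05 for the difference and for each response, and a response of at least 1 in each clone, 6 transcripts of 5 genes rose in P3D8 and fell in P3E3, and 19 transcripts of 19 genes fell in P3D8 and rose in P3E3. Of the 24 genes, the 8 with a mean of at least 50 that are not predicted genes are named here. Setbp1, a SET-binding nuclear protein, had 1312, 1509 and 921 normalized counts in P3D8/BMP9, against 200, 115 and 274 in P3D8 monolayer. It had 338, 332 and 487 in P3E3/BMP9, against 611, 820 and 1078 in P3E3 monolayer. The difference was 3.82 ± 0.40 (SE, adjusted p = 5.1e-06), and the other gene of this direction, BC005561, had 2.22 ± 0.53 (SE, adjusted p = 0.0036). In the other direction stood Kctd4, Mgst3, Adm2, Adgrd1, Insig1 and Chac1. Mgst3, a microsomal glutathione S-transferase, had 117, 98.1 and 98.9 normalized counts in P3D8/BMP9, against 408, 501 and 240 in P3D8 monolayer, and 107, 103 and 73.8 in P3E3/BMP9, against 22.3, 29.1 and 7.31 in P3E3 monolayer. The 2 cartilages overlapped for Mgst3 after changes in opposite directions. The difference was -4.19 ± 0.54 (SE, adjusted p = 3.0e-05).

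Set out the other way, the difference of the responses equals the clone difference in cartilage minus the clone difference in monolayer. P3D8/BMP9 was higher than P3E3/BMP9 for 1174 transcripts (22%) and lower for 1509 (28.3%), and P3D8 monolayer was higher than P3E3 monolayer for 1423 (26.7%) and lower for 1250 (23.4%). At a clone difference of at least 1, 342 of the 1481 transcripts with a lower P3D8 change were higher in P3D8 monolayer with no such call in cartilage, and 300 were lower in P3D8 cartilage with no such call in monolayer. Among the 999 with a higher P3D8 change, 218 were higher in P3D8 cartilage with no such call in monolayer, and 162 were lower in P3D8 monolayer with no such call in cartilage. At this cut of 1 the clones thus met in cartilage for some genes and parted there for others. Among those that met, Tgfbi, which encodes a secreted TGF-beta-induced matrix protein, had 38277, 38000 and 53634 normalized counts in P3D8/BMP9, against 7021, 8174 and 6700 in P3D8 monolayer. It had 25869, 28754 and 31860 in P3E3/BMP9, against 515, 494 and 473 in P3E3 monolayer, with a difference of -3.31 ± 0.18 (SE, adjusted p = 1.6e-08). The cartilages still did not overlap for Tgfbi, and P3D8/BMP9 was higher by a log2 difference of 0.57. Among those that parted, Srpx, a sushi-repeat protein, had 120, 89.8 and 87.8 normalized counts in P3D8/BMP9 and 1285, 1317 and 1485 in P3E3/BMP9, and at most 0.643 in any monolayer library. Its difference was -4.02 ± 0.37 (SE, adjusted p = 1.8e-06).

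**Figure D3:**
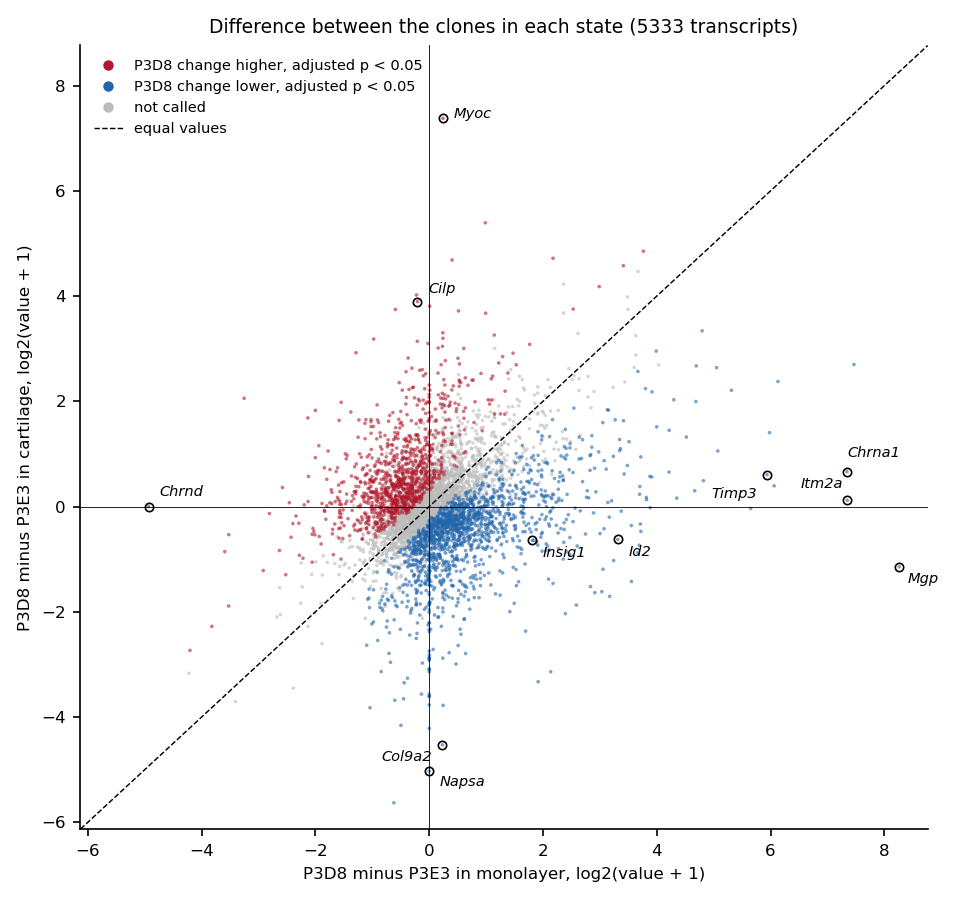
P3D8 minus P3E3 in cartilage (vertical axis) against P3D8 minus P3E3 in monolayer (horizontal axis), as differences of mean log2(normalized count + 1), for 5333 transcripts coloured as called for the difference of response. Itm2a, Timp3 and Chrna1 lie far right near the horizontal line, with a clone difference of 5.94 to 7.35 in monolayer, whereas Myoc, Cilp, Napsa and Col9a2 lie near the vertical line.

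Genes of cholesterol and fatty acid synthesis responded lower in P3D8 almost throughout. This pathway builds sterols from acetyl-CoA and is switched on by SREBP transcription factors when membranes hold little cholesterol. Of the 33 genes of the list 18 were tested, and 17 had a lower P3D8 change and none a higher one, with a median difference of -1.84, against 18.6% higher, 28.1% lower and a median of -0.08 over the 5213 genes tested. The same shares over all genes are the background for the lists that follow. In P3D8 14 of the 18 fell in cartilage and 2 rose, and in P3E3 2 fell and 10 rose. The median clone difference of the 18 was -0.27 in cartilage and 1.11 in monolayer. Between 12 and 18 members were lower and none higher under each alternative with libraries grouped by title, and the median was -1.51 with equal totals and -1.38 after quantile normalization, where the median of all genes was 0.24 and 0.03.

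Insig1 encodes the ER membrane protein that holds SREBP back when sterol is plentiful and is itself an SREBP target. It had 762, 686 and 798 normalized counts in P3D8/BMP9, against 2041, 2134 and 1660 in P3D8 monolayer. It had 1133, 1136 and 1238 in P3E3/BMP9, against 514, 576 and 561 in P3E3 monolayer. The 4 groups did not overlap, with the order of cartilage and monolayer turned round between the clones, and the difference was -2.46 ± 0.14 (SE, adjusted p = 2.0e-08). Stard4, a cytosolic sterol carrier, had 215, 165 and 233 normalized counts in P3D8/BMP9, against 405, 478 and 325 in P3D8 monolayer. It had 294, 296 and 281 in P3E3/BMP9, against 114, 97.2 and 91.97 in P3E3 monolayer. The 4 groups again did not overlap. The difference of Stard4 was -2.49 ± 0.22 (SE, adjusted p = 1.1e-06), and Elovl6, a fatty acid elongase, was the 1 member without a call at -0.05 (adjusted p = 0.87).

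Promoter windows of RefSeq (GRCm38.p6, 250 bases before to 50 after a gene's start) were available for 12 of the 18 tested members. Of these 10 held the CCAAT box letters CCAAT on either strand, against 41.5% of the 3747 tested genes with a window and 41.1% of all 27025 symbols. The share was 40.2% among genes with a lower P3D8 change and 43.3% among those with a higher one, and 10 of 16 windows of the amino acid supply and ATF4 list held these letters too. The letters TCACNCCAC, a form of the sterol response element that was searched only after the values had been seen, were in none of the 12 windows and in 1.15% of those of the tested genes. The Insig1 window (chr5:28071162-28071461, plus strand) is shown because Insig1 turned round between the clones, with its only CCAAT match, on the other strand and beginning 216 bases before the start, in capitals.
Insig1: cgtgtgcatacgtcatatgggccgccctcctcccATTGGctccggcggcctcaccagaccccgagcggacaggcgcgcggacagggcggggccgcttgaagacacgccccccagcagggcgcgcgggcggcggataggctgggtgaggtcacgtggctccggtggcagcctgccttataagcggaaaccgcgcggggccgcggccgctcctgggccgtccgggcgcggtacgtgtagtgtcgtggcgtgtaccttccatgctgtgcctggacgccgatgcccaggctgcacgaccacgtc

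**Figure D4:**
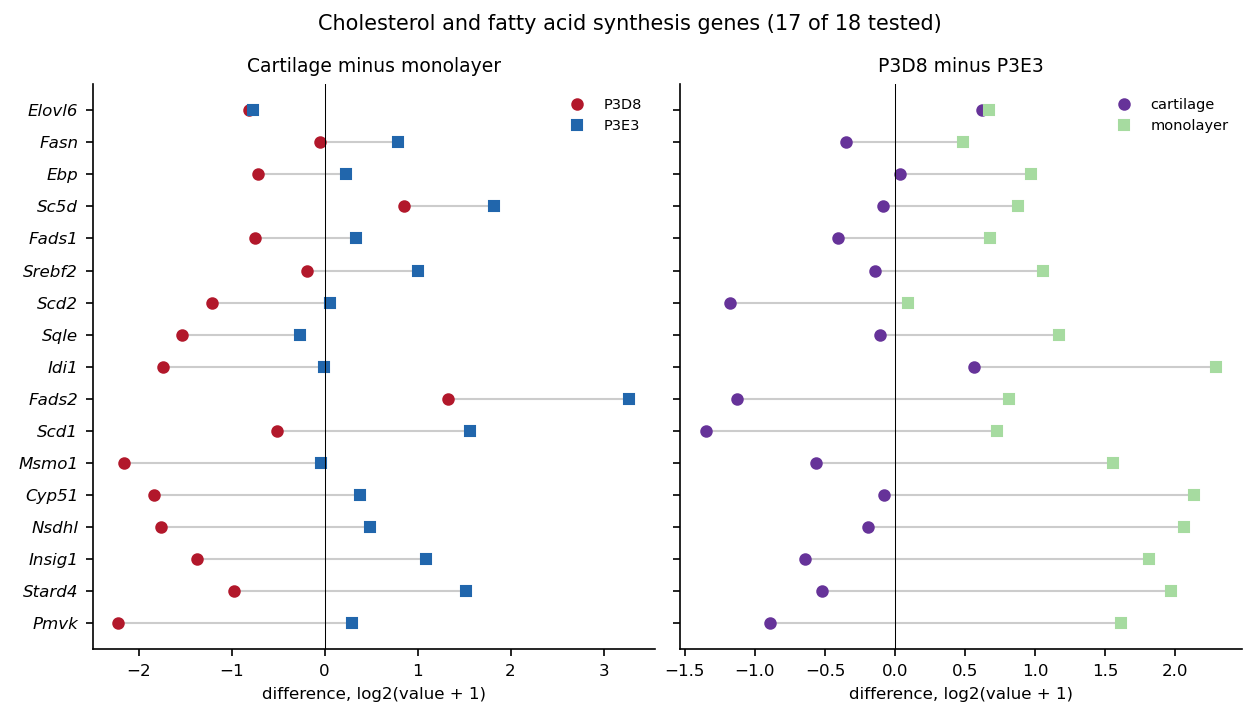
Cholesterol and fatty acid synthesis genes (17 of the 18 tested are drawn). The left panel gives cartilage minus monolayer for P3D8 (circles) and P3E3 (squares), and the right panel P3D8 minus P3E3 in cartilage (circles) and monolayer (squares), on the log2(normalized count + 1) scale. P3D8 lies left of P3E3 for each gene drawn, by least for Elovl6, and the monolayer squares lie right of 0.

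Genes of amino acid supply and the ATF4 response also had mostly lower P3D8 changes. ATF4 is a transcription factor made when amino acids run short or unfolded protein builds up, and its targets include amino acid transporters, tRNA synthetases and enzymes of serine synthesis. Of 37 genes 19 were tested, of which 14 had a lower P3D8 change and none a higher one, with a median of -1.42. In P3D8 15 fell and 2 rose, and in P3E3 7 fell and 5 rose. Across the alternatives with grouping by title 10 to 14 members were lower and none higher. Chac1, a glutathione-degrading enzyme and ATF4 target, had 746, 647 and 1068 normalized counts in P3D8/BMP9, against 1848, 1981 and 1791 in P3D8 monolayer. It had 3884, 3472 and 3037 in P3E3/BMP9, against 1918, 2046 and 1213 in P3E3 monolayer. The monolayers overlapped and the cartilages lay on opposite sides of them, with a difference of -2.26 ± 0.27 (SE, adjusted p = 1.5e-05). Slc7a5, the light chain of a large neutral amino acid transporter, had 2945, 2847 and 5221 normalized counts in P3D8/BMP9, against 20926, 19315 and 17674 in P3D8 monolayer. It had 9771, 8594 and 9189 in P3E3/BMP9, against 11480, 13813 and 7983 in P3E3 monolayer. Slc7a5 fell in P3D8, the P3E3 groups overlapped, and the difference was -2.21 ± 0.30 (SE, adjusted p = 4.4e-05). Pck2, mitochondrial PEP carboxykinase, had the largest value of the list at -2.93 ± 0.59 (SE, adjusted p = 0.001), and Ddit3, the stress factor CHOP, had -0.13 (adjusted p = 0.77).

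The letters TGATGNAA, a composite site to which ATF4 binds, were found on either strand in the windows of 7 of the 16 tested members that have one, against 2.54% of the tested genes, 3.82% of the genes with a lower P3D8 change, 1.97% of those with a higher one and 4.51% of all symbols. The members were listed as known ATF4 genes, so the match describes the list and not these libraries. Of the 7 genes 6 had a lower P3D8 change, and Slc7a11 had -0.51 (adjusted p = 0.51). One match of each is shown in capitals with the bases on each side (Slc7a11 held 2), and for Chac1 the whole window (chr2:119350992-119351291, plus strand), because these are the list's matches to its own factor's site, which the other 9 windows lack.
Chac1: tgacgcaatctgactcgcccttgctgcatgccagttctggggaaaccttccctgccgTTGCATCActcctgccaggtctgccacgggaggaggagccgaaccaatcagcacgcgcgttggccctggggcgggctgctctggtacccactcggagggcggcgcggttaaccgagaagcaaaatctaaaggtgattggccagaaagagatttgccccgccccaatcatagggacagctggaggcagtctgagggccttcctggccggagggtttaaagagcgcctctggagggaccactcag
Gars (chr6:55037961-55037988, plus strand): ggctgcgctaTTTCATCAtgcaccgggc
Nupr1 (chr7:126625563-126625590, minus strand): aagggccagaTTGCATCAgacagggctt
Pck2 (chr14:55540153-55540180, plus strand): gccttcaaagTTACATCAgtatcttaca
Slc1a4 (chr11:20332700-20332727, minus strand): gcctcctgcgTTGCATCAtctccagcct
Slc7a11 (chr3:50443662-50443689, minus strand): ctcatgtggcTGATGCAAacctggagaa
Trib3 (chr2:152344029-152344056, minus strand): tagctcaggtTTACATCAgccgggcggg

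Genes of the cytosolic ribosome moved together by a smaller amount. Of 82 ribosomal protein genes 55 were tested, of which 51 had a lower P3D8 change and none a higher one, with a median of -1.08. In P3D8 51 fell and none rose, and in P3E3 8 fell and 25 rose. The median response was -1.01 in P3D8 and 0.15 in P3E3, and the median clone difference was -1.23 in cartilage and -0.13 in monolayer. The count of lower members was 46 with equal totals and 37 after quantile normalization, with medians of -0.76 and -0.59 and no higher member under either. Rpl37a, a protein of the large subunit, had the largest difference of the list. Its values were 2002, 1948 and 2499 normalized counts in P3D8/BMP9, against 3782, 4535 and 3874 in P3D8 monolayer. It had 4891, 5256 and 5227 in P3E3/BMP9, against 2277, 2068 and 1601 in P3E3 monolayer. Cartilage lay below monolayer in P3D8 and above it in P3E3 with no overlap, and the difference was -2.31 ± 0.18 (SE, adjusted p = 3.2e-07). Ribosomal protein genes have many processed pseudogenes, and how reads that fit several copies were counted is not given.

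Of 72 nuclear genes of the respiratory chain 51 were tested, with 26 lower and 1 higher and a median of -0.49, a balance that became 15 lower and 9 higher with equal totals. Uqcrh, a subunit of complex III, had 1090, 1125 and 1313 normalized counts in P3D8/BMP9, against 1061, 1334 and 1075 in P3D8 monolayer, and 1938, 2112 and 2075 in P3E3/BMP9, against 766, 618 and 671 in P3E3 monolayer. It differed by -1.55 ± 0.15 (SE, adjusted p = 2.4e-06), from a rise in P3E3 beside overlapping P3D8 groups. Genes of ER folding and secretion rose in both clones, 18 of 18 tested in each, and rose less in P3D8 for 13 of the 18, with a median difference of -0.62. With equal totals 8 were lower and 2 higher. Sec61b, part of the channel through which new proteins enter the ER, had the largest value of that list at -1.55 ± 0.14 (SE, adjusted p = 1.8e-06).

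Genes of hyaline cartilage matrix rose in both clones, all 15 tested of 28 in each, and most that differed rose less in P3D8. There were 7 with a lower P3D8 change (Col9a2, Chad, Clec3a, Xylt1, Epyc, Col11a1 and Scrg1) and 2 with a higher one (Cilp and Cilp2), with a median of -0.83. Sox9, the factor that sets chondrocyte fate, had 3953, 3791 and 3864 normalized counts in P3D8/BMP9, against 721, 738 and 885 in P3D8 monolayer. It had 5096, 4718 and 5072 in P3E3/BMP9, against 874, 841 and 920 in P3E3 monolayer, and its difference of -0.18 ± 0.11 (SE, adjusted p = 0.2) was not called. Acan, the large proteoglycan of cartilage, had 0.09 ± 0.54 (SE, adjusted p = 0.9) at 14.9 to 53.2 normalized counts in the cartilages. Most members that differed had almost no reads in the monolayers, so their difference rests on the cartilages, and edgeR called 1 higher and 1 lower member for the difference of response. Col9a2, a chain of collagen IX that coats collagen II fibrils (chr4:121039566-121055325), had 116, 126 and 130 normalized counts in P3D8/BMP9 and 4693, 2910 and 1747 in P3E3/BMP9, against 0, 0 and 0.621 in P3D8 monolayer and 0 in all of P3E3 monolayer. The cartilages did not overlap, and Col9a2 was lower in P3D8/BMP9 by a log2 difference of -4.53 (adjusted p = 5.7e-08). Epyc, a small leucine-rich proteoglycan of growth plate cartilage, had 2138, 2397 and 1842 normalized counts in P3D8/BMP9 and 8882, 10524 and 14089 in P3E3/BMP9, and 0 in every monolayer library. Its log2 difference between the cartilages was -2.37 (adjusted p = 1.1e-07).

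The list of hypertrophic cartilage and mineralization had 13 of 22 genes tested, of which 7 were lower, 1 was higher (Phospho1) and 5 were not called, with a median of -1.42. edgeR called 4 lower and 1 higher. The median clone difference of the 13 was 0.27 in cartilage and 0.01 in monolayer. Some members with a lower P3D8 change, none of them named here, had higher values in P3D8 than in P3E3 cartilage. Mmp13, Panx3 and Ihh, which follow, had lower values in P3D8 cartilage. Mmp13, a collagenase of hypertrophic cartilage, was counted in all 4 groups: 465, 366 and 393 normalized counts in P3D8/BMP9, against 41.1, 25.1 and 93.1 in P3D8 monolayer, and 1709, 1067 and 871 in P3E3/BMP9, against 4.83, 9.49 and 3.65 in P3E3 monolayer. P3E3 was above P3D8 in cartilage and below it in monolayer with no overlap, and the difference was -4.36 ± 0.56 (SE, adjusted p = 3.1e-05). Panx3, a channel protein of prehypertrophic chondrocytes, had 1616, 1510 and 1650 normalized counts in P3D8/BMP9 and 13866, 12779 and 13897 in P3E3/BMP9, and 0 in all 6 monolayer libraries. Between the cartilages it was lower in P3D8/BMP9 by a log2 difference of -3.08 (adjusted p = 9.8e-10). Ihh, Indian hedgehog, had 6.71, 5.77 and 15.8 normalized counts in P3D8/BMP9 and 359, 145 and 26.6 in P3E3/BMP9, with at most 1.19 in any monolayer library. Its difference of -3.43 ± 1.00 (SE, adjusted p = 0.012) had an adjusted p of 0.13 without the 4 libraries with a conflicting entry and 0.67 in edgeR. Col10a1, collagen X, spread widely within each cartilage, at 7033, 3682 and 9738 normalized counts in P3D8/BMP9 and 28246, 12873 and 2233 in P3E3/BMP9, and no difference of response was detectable (difference -0.18 ± 0.94 (SE, adjusted p = 0.89)).

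Of 19 articular and joint genes 8 were tested, 4 higher (Cilp, Gdf5, Sfrp2 and Tnfrsf11b), 1 lower (Timp3) and 3 not called, with a median of 0.92. edgeR called 2 higher and 1 lower. Osr1, a zinc finger factor of joint interzones, fell in both clones by similar amounts, -4.65 in P3D8 and -4.98 in P3E3. Its mean level was higher in P3D8 in both states, at 34.2 against 8.48 normalized counts in cartilage and 876 against 294 in monolayer. Gdf5, a BMP family ligand that marks the forming joint, had 2.98, 0.824 and 1.58 normalized counts in P3D8/BMP9, against 1.96, 1.29 and 2.48 in P3D8 monolayer, and 18.4, 4.13 and 8.58 in P3E3/BMP9, against 28.97, 38.5 and 29.2 in P3E3 monolayer. Its call of 1.63 ± 0.61 (SE, adjusted p = 0.04) came from a fall in P3E3 with no detectable change in P3D8 and was lost on leaving out P3D8/BMP9 replicate 1 (1.34, adjusted p = 0.10) or 3, P3D8 monolayer replicate 1 or 2, or P3E3/BMP9 replicate 2 or 3. Matrix genes of fibrous connective tissue split, with 6 of 19 tested higher and 9 lower and a median of -1.07. Dcn, the collagen-binding proteoglycan decorin, had 1945, 2016 and 2057 normalized counts in P3D8/BMP9, against 403, 445 and 465 in P3D8 monolayer. It had 646, 638 and 1055 in P3E3/BMP9, against 10.9, 2.96 and 6.09 in P3E3 monolayer. Dcn was higher in P3D8 in both states, and its change was smaller there by -4.58 ± 0.41 (SE, adjusted p = 1.5e-06). Col1a1, the main chain of collagen I, rose by 3.81 in P3D8 and 3.76 in P3E3, and its difference of 0.05 (adjusted p = 0.77) became -0.95 after quantile normalization.

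Among direct BMP target genes 12 of 18 were tested, of which 2 were higher, 3 lower and 7 not called, with a median of -0.0046. The shares, 16.7% higher and 25% lower, were near the 18.6% and 28.1% of all 5213 genes tested. With equal totals 5 were higher and 3 lower, beside 1737 higher and 980 lower of the 5213 genes. Id2 had 2519, 2352 and 2099 normalized counts in P3D8/BMP9, against 284, 307 and 306 in P3D8 monolayer. It had 3597, 3560 and 3561 in P3E3/BMP9, against 26.6, 32.6 and 28.6 in P3E3 monolayer. The groups were tight and did not overlap, and P3D8 monolayer lay far above P3E3 monolayer before any added BMP. The difference was -3.94 ± 0.13 (SE, adjusted p = 1.4e-10). Id3 had 4453, 4478 and 4818 normalized counts in P3D8/BMP9, against 218, 275 and 206 in P3D8 monolayer, and 4741, 5250 and 4627 in P3E3/BMP9, against 27.8, 27.3 and 12.8 in P3E3 monolayer. For Id3 the cartilages overlapped and the difference was -3.46 ± 0.30 (SE, adjusted p = 1.1e-06). Msx2, a homeobox factor of limb mesenchyme, went the other way, with 57.4, 59.3 and 54.6 normalized counts in P3D8/BMP9, against 0, 0.643 and 3.73 in P3D8 monolayer, and 0, 1.65 and 0 in P3E3/BMP9, against 0 in P3E3 monolayer. Its difference of 4.41 ± 0.71 (SE, adjusted p = 0.00019) had an adjusted p of 0.84 in edgeR, with almost no reads in P3E3. Nog, a secreted BMP antagonist, rose in both clones, by 8.90 in P3D8 and 8.91 in P3E3. Its mean level was lower in P3D8 in both states, at 1150 against 4672 normalized counts in cartilage and 2.08 against 9.26 in monolayer.

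Limb and homeobox factors leaned the other way from the synthesis genes, with 9 of 16 tested higher, 3 lower and a median of 0.52. Prrx1, a factor of limb mesenchyme, had 458, 481 and 450 normalized counts in P3D8/BMP9, against 565, 550 and 643 in P3D8 monolayer. It had 202, 174 and 163 in P3E3/BMP9, against 607, 671 and 747 in P3E3 monolayer, so that it fell in both clones and less in P3D8, by 1.57 ± 0.15 (SE, adjusted p = 1.9e-06). Hoxd10, a Hox factor of the distal limb, had 46.99, 37.9 and 41.1 normalized counts in P3D8/BMP9, against 9.13, 8.36 and 7.45 in P3D8 monolayer, and 15.3, 14.1 and 9.44 in P3E3/BMP9, against 21.1, 16.01 and 26.8 in P3E3 monolayer. It rose in P3D8 and fell in P3E3, with a difference of 2.88 ± 0.35 (SE, adjusted p = 1.7e-05). Cell cycle genes fell in both clones, 14 of 15 tested in P3D8 and 13 in P3E3. Of the 15, 12 showed no called difference, beside 2779 of all 5213 genes tested.

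**Figure D5:**
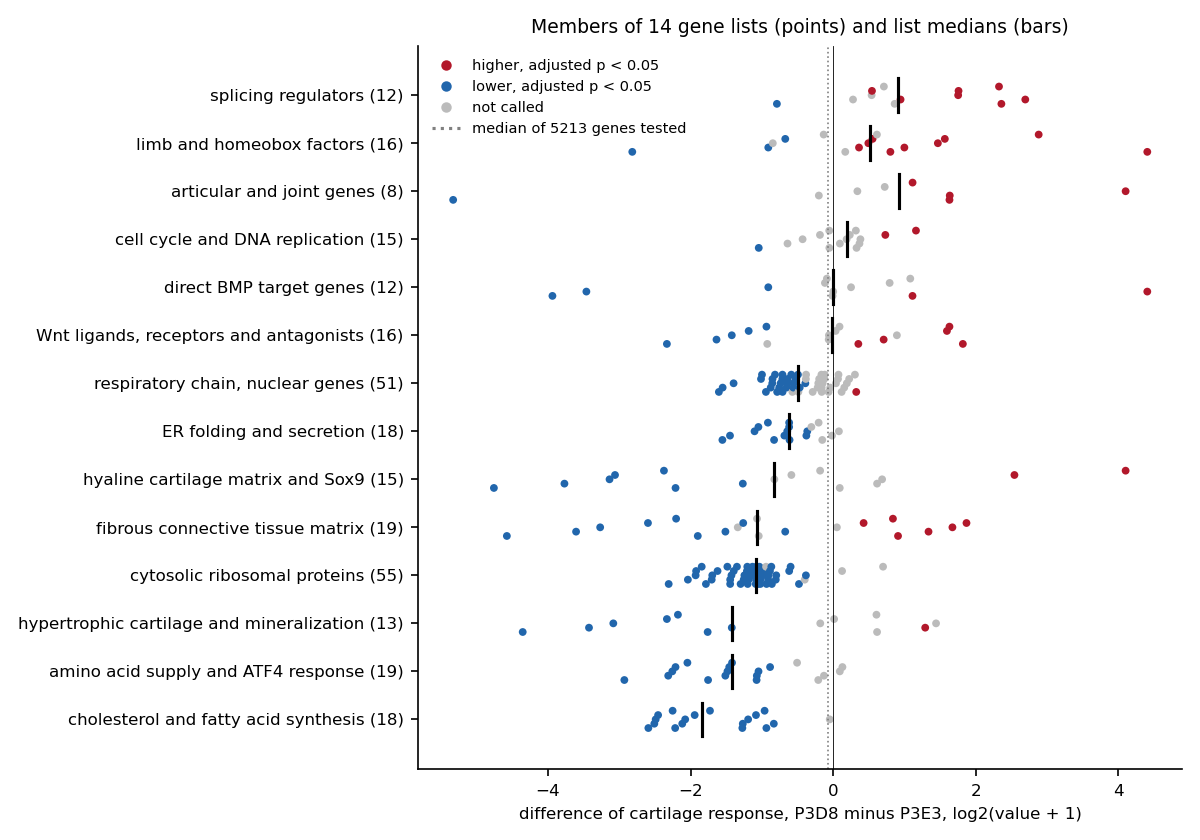
Difference of cartilage response, P3D8 minus P3E3 on the log2(normalized count + 1) scale, for the tested members of 14 gene lists (number tested in brackets). Each point is a gene, coloured by its call, and the black bar is the list's median. The medians run between 0.92 for the articular and joint genes and -1.84 for cholesterol and fatty acid synthesis, beside a median of -0.08 over 5213 genes (dotted line).

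Several of the strongest responses were shared within a narrow interval. Rspo3, a secreted enhancer of Wnt signaling, had 2660, 2540 and 2842 normalized counts in P3D8/BMP9, against 0, 0 and 0.621 in P3D8 monolayer, and 1956, 2334 and 2961 in P3E3/BMP9, against 0 in P3E3 monolayer. With almost no reads in the monolayers, the size of both Rspo3 responses depends on the pseudocount. Bambi, a BMP pseudoreceptor, had 3399, 3463 and 4451 normalized counts in P3D8/BMP9, against 3.26, 4.50 and 4.35 in P3D8 monolayer. It had 4178, 4531 and 4030 in P3E3/BMP9, against 4.83, 5.34 and 7.31 in P3E3 monolayer. Both genes overlapped between the clones in cartilage, and the difference was -0.06 ± 0.30 (SE, adjusted p = 0.88) for Rspo3 and 0.25 ± 0.22 (SE, adjusted p = 0.38) for Bambi. With the quantile scaling Bambi had 0.86 (adjusted p = 0.0015). Among genes that fell, Tes, a focal adhesion protein, had 108, 115 and 148 normalized counts in P3D8/BMP9, against 3498, 3451 and 2988 in P3D8 monolayer. It had 63.6, 35.5 and 47.2 in P3E3/BMP9, against 1569, 1709 and 1391 in P3E3 monolayer, and its difference was 0.26 ± 0.25 (SE, adjusted p = 0.41).

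Among markers of other cell types, all 7 defining endothelial markers and 5 of 7 defining immune markers were listed at 0 in the 12 libraries, and the summed immune level was 3.30 to 7.46 normalized counts in P3D8/BMP9, 1.96 to 7.07 in P3D8 monolayer, 2.58 to 5.36 in P3E3/BMP9 and 2.44 to 4.22 in P3E3 monolayer. The wider lists held 1 tested gene each. Cd14, a lipopolysaccharide co-receptor of myeloid cells, had 177, 213 and 244 normalized counts in P3D8/BMP9, against 492, 537 and 420 in P3D8 monolayer, and 145, 112 and 130 in P3E3/BMP9, against 150, 109 and 168 in P3E3 monolayer. It fell in P3D8, the P3E3 groups overlapped, and the difference was -1.07 ± 0.24 (SE, adjusted p = 0.0021). Flt1, a VEGF receptor, had 58.2, 43.7 and 37.2 normalized counts in P3D8/BMP9, against 9.13, 9.64 and 2.48 in P3D8 monolayer, and 0, 2.48 and 3.43 in P3E3/BMP9, against 0, 1.78 and 0 in P3E3 monolayer, with no called difference (1.87 ± 0.83, SE, adjusted p = 0.079). The adipocyte markers, with Pparg, Plin1 and Cfd at 0, summed to 393 to 424 normalized counts in P3D8/BMP9, 1.29 to 6.83 in P3D8 monolayer, 208 to 264 in P3E3/BMP9 and at most 0.609 in P3E3 monolayer. The osteoblast markers summed to 1248 to 1460 normalized counts in P3D8/BMP9 and 33.4 to 43.5 in P3D8 monolayer. In P3E3 they summed to 923 to 1100 in cartilage and 11.6 to 16.3 in monolayer. Of 4 osteoblast markers tested 2 had a lower P3D8 change and none a higher one. The part of these marker sets in the differences of response was not tested.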

How the data were processed

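RNA of 12 cultures was sequenced (polyA RNA, 3 cultures for each of P3D8/BMP9, P3D8 monolayer, P3E3/BMP9 and P3E3 monolayer). The authors aligned the reads to mm10 with HISAT2, counted them per RefSeq transcript with htseq-count (HTSeq) and normalized the counts with DESeq2 over all of their datasets together. The versions are not given in the sources used here. The deposited signal values are therefore counts divided by 1 size factor per library. Whole reads were recovered for 100% of the values (tolerance 0.01), giving 7269748 to 8662298 reads per library. A second deposited table, with the authors' fold changes, FDR p-values and group means of the cartilages, was not used.

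Values were transformed as log2(value + 1), transcripts with a mean of at least 10 were kept, and the interaction of clone and culture was fitted over all 12 libraries with limma 3.58.1 in R 4.3.3 (trended empirical Bayes, two-sided tests, Benjamini-Hochberg adjustment over 5333 transcripts). edgeR 4.0.16 on the recovered reads, which called 2340 transcripts, and DESeq2 1.42.0 were alternatives, as were other pseudocounts, filters, scalings and left-out libraries. The fit was tested on simulated data. Differences were planted there only in transcripts above a minimum mean and a minimum P3D8/BMP9 level. Recovery of differences below that level was not tested. With 1 clone per line, p-values measure the spread between cultures of these clones.

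Members and gene lists were chosen with earlier results of these data known. Genes were named as the 12 largest differences in each direction without overlap between the clones (at least 1.5, mean of at least 50), the 6 largest opposite responses in each direction, up to 4 members per list with the largest difference, the genes that the study stained or named for the cartilages, the 6 strongest shared rises and falls, and the 6 largest clone differences held by monolayer or cartilage alone. Gm, Rik and LOC symbols were left out of this choice except in the lists. For a gene with several entries the most counted one is given. Elovl6, Ddit3 and Slc7a11 fall outside the rule and were added after their values were seen. A few genes are not reported here by name, although they count in the list totals.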

Additional observations from a re-analysis of the deposited data

Results flagged for a closer look

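Of the named genes with a mean of at least 50, 8 had opposite responses, each called and at least 1 in size, and a called difference. The difference, P3D8 response minus P3E3 response in limma, was 3.82 for Setbp1 and 2.22 for BC005561, which rose in P3D8 and fell in P3E3. It was -4.06 for Kctd4, -4.19 for Mgst3, -2.75 for Adm2, -2.91 for Adgrd1, -2.46 for Insig1 and -2.26 for Chac1, which fell in P3D8 and rose in P3E3. Kctd4, a potassium channel tetramerization domain protein, had 59.7, 48.6 and 37.2 normalized counts in P3D8/BMP9, against 211, 207 and 206 in P3D8 monolayer, and 226, 246 and 282 in P3E3/BMP9, against 54.9, 61.1 and 76.7 in P3E3 monolayer. Adm2, the secreted peptide adrenomedullin 2, had 362, 352 and 688 normalized counts in P3D8/BMP9, against 1030, 1078 and 1022 in P3D8 monolayer, and 2325, 2023 and 1583 in P3E3/BMP9, against 828, 766 and 493 in P3E3 monolayer. Adgrd1, an adhesion G protein-coupled receptor, had 19.4, 18.95 and 19.8 normalized counts in P3D8/BMP9, against 46.3, 46.3 and 41.6 in P3D8 monolayer, and 201, 216 and 203 in P3E3/BMP9, against 74.8, 59.9 and 50.6 in P3E3 monolayer. Cartilage and monolayer did not overlap in either clone for Kctd4, Adm2 and Adgrd1. No group had 4 libraries or more, so single libraries were not tested against their group.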

How the results depend on the processing

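The main counts were 999 higher and 1481 lower transcripts, and 282 and 433 with a difference of at least 1.5. Leaving out 1 library at a time gave 844 to 1074 higher, 1321 to 1503 lower, 233 to 305 higher by at least 1.5 and 399 to 474 lower by at least 1.5. A mean of at least 50 left 129 higher and 274 lower by at least 1.5 from 3681 transcripts tested, and genes with 1 entry left 149 higher from 3537. Testing every transcript with a value above 0 gave 498 higher by at least 1.5, among 23221. Equal totals without the 10 most counted transcripts gave 1774 higher and 440 higher by at least 1.5. Without the 4 libraries whose cell line entry conflicts with the title, 631 were higher. Grouping by that entry instead gave 0 higher and 0 lower transcripts with limma, with 49 at an unadjusted p under 0.05, and edgeR and DESeq2 were not run on that grouping. On it the sign turned for Ihh (0.27), Rel (-0.063), Gap43 (0.21), S100b (0.040), Impact (-0.40), Atf3 (0.23) and Zbed6 (-0.012). Nkd2 had -0.18 in edgeR, and Col1a1 had -0.95 after quantile normalization. The causes were not tested. edgeR gave 1096 higher and 1244 lower, and DESeq2 1022 and 1289. Replicate numbers did not pair the libraries (correlations of deviations -0.31 to 0.25), and a replicate block gave 934 higher and 1411 lower. Of the 2480 transcripts called, the sign turned for 30 with equal totals, 18 after quantile normalization, 4 in edgeR and 2 in DESeq2. Low counts limit genes with few reads in a group, where the pseudocount sets the fitted value.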

Other observations

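Over all 5213 genes tested 18.6% were higher and 28.1% lower. Glycolysis and hypoxia genes split within the list, with 6 of 13 tested lower, 3 higher and a median of -0.95. The lower members were led by the glycolytic enzymes Gpi1 (-1.95, adjusted p = 2.0e-07) and Pfkl (-1.84, adjusted p = 0.0014) and included Ero1l, an ER oxidase. Adm, the peptide adrenomedullin (2.53, adjusted p = 0.00013), and Egln3, an oxygen-sensing hydroxylase (1.98, adjusted p = 0.00091), were higher, as was Aldoa, itself a glycolytic enzyme (1.19, adjusted p = 0.018), whose gene has 7 entries in the table. Of 14 lysosomal genes tested 8 were lower and 1 was higher, with a median of -0.35, led by the proteases Ctsl (-1.96, adjusted p = 0.00025) and Ctsd (-1.49, adjusted p = 1.1e-07). With equal totals 5 lysosomal genes were lower and 3 higher.

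Wnt pathway genes had 5 of 16 tested lower and 5 higher, 31% in each direction, beside 28.1% lower and 18.6% higher over all genes tested. Sost and Frzb, both secreted antagonists, were lower (-2.33, adjusted p = 0.00078, and -1.64, adjusted p = 0.0043), whereas Sfrp2, also a secreted antagonist (1.63, adjusted p = 0.0058), and the ligand Wnt5a (1.59, adjusted p = 0.011) were higher. Nkd2, an intracellular antagonist, was higher in limma (1.82, adjusted p = 0.0082) and had -0.18 in edgeR. edgeR called 3 Wnt pathway genes lower and 3 higher. Among matrix proteases and inhibitors 5 of 14 tested were lower and 5 higher, with Mmp3 at -3.35 (adjusted p = 2.6e-06) and the aggrecanase Adamts5 at 1.96 (adjusted p = 4.4e-06). Complement genes had 4 of 6 tested lower and none higher, which became 2 lower and 1 higher with equal totals. Splicing regulators had 7 of 12 tested higher and 1 lower, led by Srsf3 (2.69, adjusted p = 3.3e-06), but between 0 and 9 members were higher across the alternatives, and many of these genes have several entries in the table. The genes that the study names for P3D8 cartilage had 11 of 15 tested higher and 1 lower, and those it names for P3E3 cartilage 10 of 12 lower and 1 higher. edgeR called 9 higher and 1 lower of the P3D8 list, and 2 lower and none higher of the P3E3 list. Both lists were chosen on these libraries and are not independent evidence.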
